A study of Rattus norvegicus with 12 samples.

Results

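10 genes switched on within minutes of neuronal activity, known as immediate early genes, were followed in the hippocampus of Sprague Dawley rats by RNA sequencing. They were taken as a list of rat Ensembl gene IDs, namely Arc (ENSRNOG00000043465), Fos (ENSRNOG00000008015), Fosb (ENSRNOG00000046667), Jun (ENSRNOG00000026293), Junb (ENSRNOG00000042838), Egr1 (ENSRNOG00000019422), Egr2 (ENSRNOG00000000640), Nr4a1 (ENSRNOG00000007607), Npas4 (ENSRNOG00000020009) and Dusp1 (ENSRNOG00000003977), and all 10 were found among the 28959 rows of the deposited table. The rats formed 4 groups with 3 libraries each. CUMS-Alb, CUMS-Flx and CUMS-Sal rats were exposed over 5 weeks to chronic unpredictable mild stress (CUMS), in which mild stressors of several kinds alternate and which serves as a rodent model of depression. In the final 7 days CUMS-Alb rats were given albiflorin, a monoterpene glycoside of peony root, at 7 mg/kg/d. CUMS-Flx rats were given fluoxetine, a serotonin reuptake inhibitor, with a daily dose of 10 mg/kg by the labels of the samples but 7 mg/kg by the text on the series, and CUMS-Sal rats were given saline. Ctrl-Sal rats were not stressed and were also given saline. All groups share the strain and the stated age of 6 to 7 weeks. Whether that is the age at the start of the 5 weeks or at tissue collection was not established. How long after the last stressor or dose the tissue was collected is not given in the sources used here.

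Immediate early genes are transcribed by means of preexisting transcription factors, without new protein synthesis, when synaptic input raises calcium and activates kinases in a neuron. The factors CREB, bound to the cyclic AMP response element, and SRF, bound to the CArG box, carry much of this signal. Their messenger RNAs are short-lived, so that a level reflects recent activity, and in the hippocampus Arc, Fos and Egr1 are standard marks of neurons active during learning, novelty or stress. Most of the products are transcription factors that set the later response of the cell, while Arc acts at synapses and Dusp1 switches kinases off.

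The windows before the gene start of Egr1, Egr2, Nr4a1, Junb and Dusp1 are shown because these are the members with a match to the CREB or SRF element. Sequences are from RefSeq in build GRCr8, whereas the processing notes name rn6 for the expression data. Windows of 7 of the 10 genes were matched by symbol, and Fos, Arc and Jun were not matched. Each is the 250 bases before the gene start in the direction of transcription, in lower case. Capitals mark the CArG box, the full element TGACGTCA and its core TGACG, searched on both strands, so that the core also appears as CGTCA and each full element holds 2 overlapping cores.
Egr1, chr18:26736828-26737077, plus strand: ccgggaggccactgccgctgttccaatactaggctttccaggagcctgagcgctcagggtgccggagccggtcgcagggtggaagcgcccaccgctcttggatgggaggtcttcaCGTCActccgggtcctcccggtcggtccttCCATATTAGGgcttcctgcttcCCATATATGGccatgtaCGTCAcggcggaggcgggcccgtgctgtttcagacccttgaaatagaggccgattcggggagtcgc
Egr2, chr20:21054442-21054691, minus strand: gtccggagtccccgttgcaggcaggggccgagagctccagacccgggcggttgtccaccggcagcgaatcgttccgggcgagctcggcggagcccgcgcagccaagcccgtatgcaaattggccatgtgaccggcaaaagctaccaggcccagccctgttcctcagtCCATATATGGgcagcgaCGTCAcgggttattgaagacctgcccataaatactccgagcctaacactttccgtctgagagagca
Nr4a1, chr7:134259888-134260137, plus strand: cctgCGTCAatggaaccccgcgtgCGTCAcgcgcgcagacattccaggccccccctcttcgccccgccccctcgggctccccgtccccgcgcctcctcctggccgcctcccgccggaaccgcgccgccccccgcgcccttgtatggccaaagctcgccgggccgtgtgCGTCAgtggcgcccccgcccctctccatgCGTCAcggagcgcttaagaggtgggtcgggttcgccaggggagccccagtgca
Junb, chr19:40080876-40081125, plus strand: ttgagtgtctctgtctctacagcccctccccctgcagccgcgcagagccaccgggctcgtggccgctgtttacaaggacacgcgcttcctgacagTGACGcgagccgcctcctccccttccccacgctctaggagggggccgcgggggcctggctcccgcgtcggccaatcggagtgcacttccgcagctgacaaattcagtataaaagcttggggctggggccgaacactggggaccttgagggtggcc
Dusp1, chr10:17184603-17184852, plus strand: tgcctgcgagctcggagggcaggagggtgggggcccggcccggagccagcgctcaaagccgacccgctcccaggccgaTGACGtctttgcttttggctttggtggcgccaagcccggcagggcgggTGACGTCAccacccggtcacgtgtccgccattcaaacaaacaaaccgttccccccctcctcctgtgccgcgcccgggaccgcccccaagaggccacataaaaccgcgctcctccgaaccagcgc

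Egr1 and Egr2 held a CArG box and a core element at the same distances from their starts, at -83 to -74 and at -66 to -62, and Egr1 had another CArG box at -105 to -96. A CArG box was in the window of 2 of 7 members, against 1.5% of 33469 windows. The full element was in 1 of 7, in Dusp1 at -124 to -117, against 1.59%. Its core was in 5 of 7, against 18.2%, with 4 matches in Nr4a1 and 1 in Junb. The motif TATAAA was in 2 of 7, Junb and Fosb, against 12.9% of windows. Npas4 had none of these letters in its window. A match describes the letters only, and binding was not measured.

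**Figure D1:**
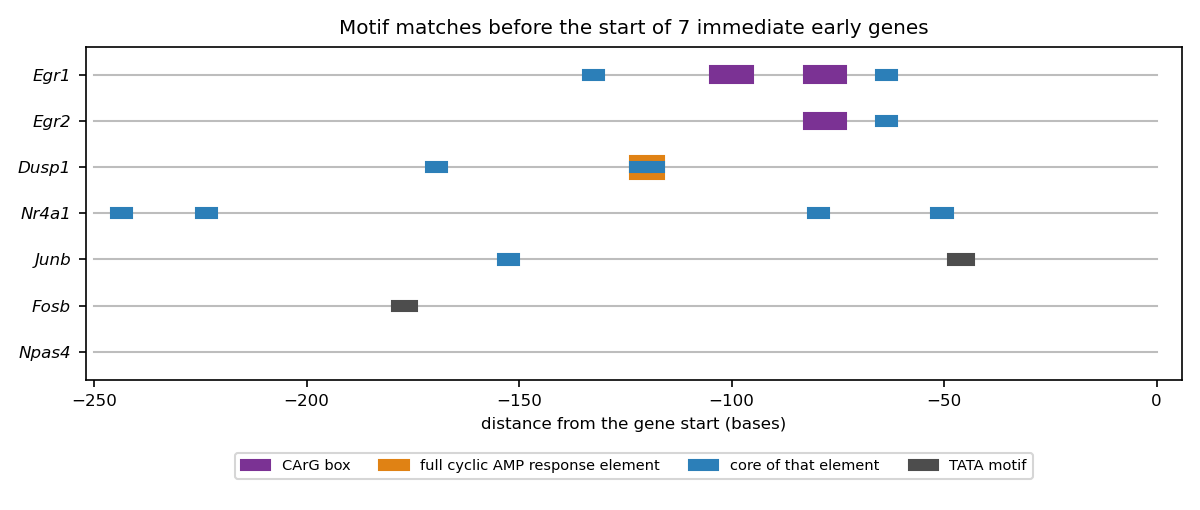
Motif matches (coloured blocks) along the 250 bases before the start of 7 genes, with distance from the gene start in bases on the x axis and 1 line per gene. Egr1 and Egr2 show a CArG box at -83 to -74 followed by a core element at -66 to -62.

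Library depth was 14735953 to 18109623 reads assigned to genes. FPKM scales the reads of a gene by its length and by the total of the library, so levels can be set side by side between genes. Ctrl-Sal replicate 2 stood apart: over the 15253 rows whose mean reached 0.5 FPKM, its median deviation from the row means was -0.10 on the log2 scale, the lowest of 12, against 0.05 for the highest. Ctrl-Sal replicates 1 and 3 were at -0.05 and -0.03, and the CUMS-Flx libraries at -0.05 to 0.02. All CUMS-Alb and CUMS-Sal libraries were at 0.02 to 0.05, so the shift also runs between groups. Ctrl-Sal replicate 2 was also the lowest of the 12 libraries for 5 of the 10 members. Values without it are given beside the results that it moves most. Nothing in the labels says that the 3 libraries of a group are separate animals, so p-values measure the spread between these libraries only, which may be partly technical. In bulk tissue, fewer cells that express a gene and less RNA per cell cannot be told apart. The hippocampal identity of the tissue was not checked against other marker genes, because the sources used here do not pair the table's other IDs with names.

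Members spanned nearly 2 orders of magnitude in level. Jun had the highest mean over the 12 libraries, 40.5 FPKM, above 86.3% of the rows tested. Egr1 followed at 21.5, Nr4a1 at 17.7, Arc at 15.4, Dusp1 at 12.9 and Junb at 11.3 FPKM, all above the 8.12 FPKM of the median row. Fos was lower, at 2.72 FPKM, with Fosb at 2.04, Npas4 at 0.823 and Egr2 at 0.462 FPKM. The steps from Jun to Egr1, from Junb to Fos and from Fosb to Npas4 held in 12 of 12 libraries. Neighbours in between crossed: Egr1 was above Nr4a1 in 11, Nr4a1 above Arc in 10, Arc above Dusp1 in 9 and Dusp1 above Junb in 8 of 12 libraries, Fos above Fosb in 11 and Npas4 above Egr2 in 10. Egr2 lay under the minimum mean of 0.5 FPKM, so 9 of the 10 members were tested. Behind these levels stood 1398 to 2447 reads per library for Jun, 39 to 101 for Fos, 18 to 53 for Npas4 and 13 to 32 for Egr2.

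Arc, whose protein sits at synapses and promotes the removal of AMPA-type glutamate receptors, had 17.4, 15.8 and 15.2 FPKM in CUMS-Alb, 14.8, 16.003 and 20.2 in CUMS-Flx libraries, 16.4, 17.3 and 18.1 in CUMS-Sal, against 12.9, 8.18 and 13.1 in Ctrl-Sal. Every library of the 3 stressed groups lay above every Ctrl-Sal library, and Ctrl-Sal replicate 2 was far below the other two.

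Junb, Jun, Fos and Fosb encode the proteins that pair up as the transcription factor AP-1, in which a Fos protein typically binds DNA together with a Jun partner. Junb had 14.1, 12.6 and 11.4 FPKM in CUMS-Alb, 9.76, 12.9 and 14.2 in CUMS-Flx libraries, 11.2, 14.0 and 14.3 in CUMS-Sal, against 7.19, 4.62 and 9.60 in Ctrl-Sal. As for Arc, the Ctrl-Sal libraries lay below the 9 others, although CUMS-Flx replicate 1 came close to Ctrl-Sal replicate 3. Jun had 44.4, 43.1 and 43.4 FPKM in CUMS-Alb, 41.3, 44.7 and 43.7 in CUMS-Flx libraries, 38.5, 37.3 and 43.2 in CUMS-Sal, against 37.6, 28.9 and 40.2 in Ctrl-Sal. The CUMS-Sal libraries overlapped all other groups, and the CUMS-Alb and CUMS-Flx libraries lay above Ctrl-Sal. Fos had 3.55, 1.77 and 2.59 FPKM in CUMS-Alb, 3.19, 3.80 and 3.41 in CUMS-Flx libraries, 2.33, 1.60 and 2.54 in CUMS-Sal, against 2.52, 2.33 and 3.04 in Ctrl-Sal. CUMS-Flx was clear of CUMS-Sal and Ctrl-Sal, and CUMS-Alb ranged across all of them. Fosb, whose truncated product accumulates in the brain on repeated stimulation, had 2.02, 1.65 and 2.43 FPKM in CUMS-Alb, 2.45, 2.47 and 2.57 in CUMS-Flx libraries, 1.97, 1.76 and 2.001 in CUMS-Sal, against 1.81, 1.30 and 2.05 in Ctrl-Sal. All CUMS-Flx libraries were above the 9 others, narrowly so for CUMS-Alb replicate 3, and the gene-level values do not separate the truncated from the full form.

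Egr1 and Egr2 encode zinc finger transcription factors of 1 family, of which Egr1 takes part in lasting synaptic strengthening and Egr2 is best known from hindbrain patterning and myelin formation in peripheral nerve. Egr1 had 24.8, 21.4 and 20.9 FPKM in CUMS-Alb, 23.8, 26.9 and 25.5 in CUMS-Flx libraries, 19.2, 18.7 and 18.5 in CUMS-Sal, against 18.4, 21.8 and 18.4 in Ctrl-Sal. The CUMS-Sal libraries were close together and below both drug groups, and Ctrl-Sal replicate 2, here the highest of its group, reached into the CUMS-Alb range. Egr2 had 0.602, 0.398 and 0.503 FPKM in CUMS-Alb, 0.540, 0.499 and 0.529 in CUMS-Flx libraries, 0.257, 0.261 and 0.462 in CUMS-Sal, against 0.462, 0.633 and 0.403 in Ctrl-Sal. CUMS-Flx lay above CUMS-Sal without overlap, on few reads.

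Nr4a1, an orphan nuclear receptor, had 25.6, 18.2 and 17.96 FPKM in CUMS-Alb, 17.6, 21.5 and 21.4 in CUMS-Flx libraries, 18.8, 18.2 and 15.4 in CUMS-Sal, against 13.3, 12.2 and 12.4 in Ctrl-Sal. The Ctrl-Sal libraries were close together and all below the 9 stressed ones, and CUMS-Alb replicate 1 was far above the other CUMS-Alb libraries. Npas4, a transcription factor induced selectively by calcium entry in neurons known for regulating inhibitory synapses, had 0.580, 0.428 and 0.566 FPKM in CUMS-Alb, 1.04, 0.583 and 1.19 in CUMS-Flx libraries, 1.06, 0.714 and 1.27 in CUMS-Sal, against 1.16, 0.623 and 0.655 in Ctrl-Sal. CUMS-Alb was the lowest group and did not overlap the 3 others. The margin was narrow, with 22 reads in CUMS-Alb replicate 1 and 24 in CUMS-Flx replicate 2. Dusp1, a phosphatase that switches off MAP kinases and so ends the signal that induces the others, had 19.9, 14.8 and 11.8 FPKM in CUMS-Alb, 11.6, 19.4 and 14.1 in CUMS-Flx libraries, 11.2, 8.03 and 10.0 in CUMS-Sal, against 7.54, 16.3 and 9.80 in Ctrl-Sal. CUMS-Sal was below both drug groups, while Ctrl-Sal spanned most of the range.

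**Figure D2:**
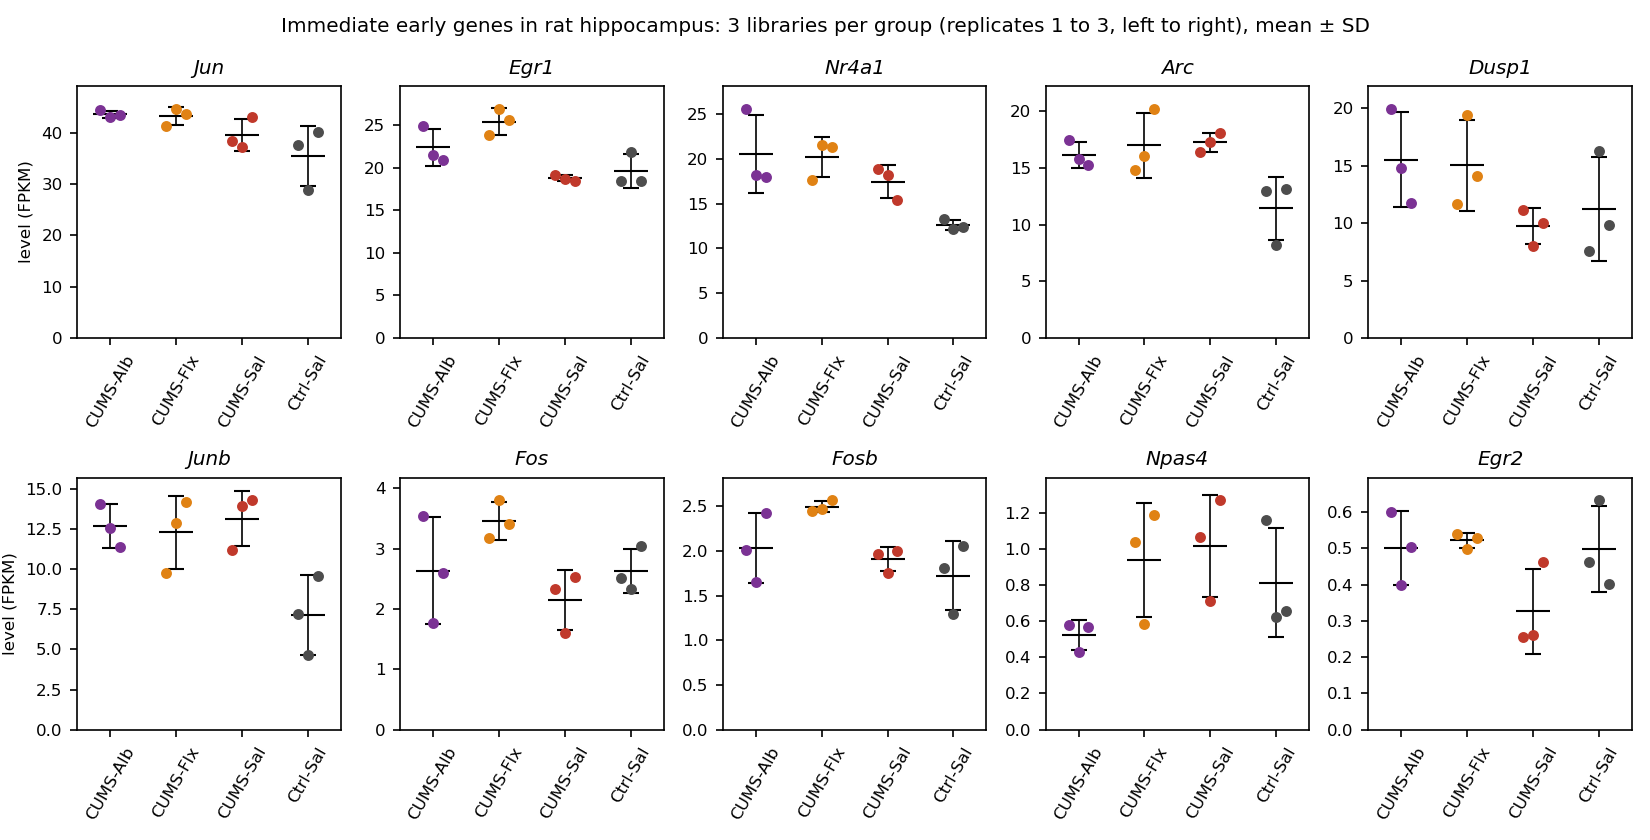
Level in FPKM (y axis, from 0) of the 10 genes in each library (points, replicates 1 to 3 from left to right) for the 4 groups on the x axis, with the mean and SD of 3 libraries as bars. Arc, Junb and Nr4a1 are lower in all Ctrl-Sal libraries than in all stressed ones, and Npas4 is lowest in CUMS-Alb. The share of all rows separated in this way was not counted.

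Stress was examined by setting CUMS-Sal against Ctrl-Sal. Arc, Junb and Nr4a1 rose in CUMS-Sal, and 6 of the 9 tested members did not pass the test. Junb averaged 13.2 ± 1.69 FPKM in CUMS-Sal, against 7.14 ± 2.49 in Ctrl-Sal (SD, n = 3 each), a 1.85-fold difference on the scale of FPKM + 0.5 (log2 change 0.88, SE 0.21, limma adjusted p = 0.0326). Arc averaged 17.2 ± 0.844 FPKM in CUMS-Sal, against 11.4 ± 2.81 in Ctrl-Sal, or 1.52-fold (log2 change 0.60, SE 0.16, limma adjusted p = 0.0394). Nr4a1 averaged 17.5 ± 1.82 FPKM in CUMS-Sal, against 12.6 ± 0.587 in Ctrl-Sal, or 1.37-fold (log2 change 0.45, SE 0.13, limma adjusted p = 0.0495). Each was higher in 3 of 3 CUMS-Sal libraries than in every Ctrl-Sal library. Calls are at a Benjamini-Hochberg adjusted p under 0.05 over all 15253 tested rows, of which 9.19% were called, 8.05% higher and 1.14% lower; of the 9 members 3 were called, all higher. The same 3 members, and no other, were higher without overlap and had an unadjusted p under 0.05, against 25.3% and 30% of rows, and 0 members were lower without overlap, against 5.85%.

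The other AP-1 and Egr members, Npas4 and Dusp1 did not pass the test. Fos averaged 2.15 ± 0.494 FPKM in CUMS-Sal, against 2.63 ± 0.368 in Ctrl-Sal (limma adjusted p = 0.423), and Egr1 18.8 ± 0.369 in CUMS-Sal, against 19.6 ± 1.98 in Ctrl-Sal (adjusted p = 0.715). The log2 changes of Jun, Fosb, Npas4 and Dusp1 were 0.17, 0.13, 0.21 and -0.14, with SEs of 0.10, 0.15, 0.21 and 0.26. Without Ctrl-Sal replicate 2 they were 0.03 for Jun, -0.01 for Fosb, 0.11 for Npas4 and 0.16 for Dusp1, and that of Egr1 was 0.03 in place of -0.05, so that Fosb, Dusp1 and Egr1 had the opposite sign. The median log2 change of the 9 tested members was 0.17, and that of all tested rows 0.10. Egr2, outside the main test, had 49 reads in the CUMS-Sal libraries together and 75 in Ctrl-Sal, a ratio of 0.655 per total reads (exact 95% interval 0.447 to 0.951, counting error alone), and its limma adjusted p with no minimum level was 0.267.

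All 3 calls lay near the threshold, and scaling and single libraries moved them. With every library shifted to a median deviation of 0, which takes out the shift of 0.10, the log2 changes were 0.78 for Junb, still called (limma adjusted p = 0.0434), and 0.50 for Arc and 0.35 for Nr4a1, not called (adjusted p = 0.0605 and 0.0995). Without Ctrl-Sal replicate 2 none was called: the log2 changes were 0.62 for Junb, 0.39 for Arc and 0.43 for Nr4a1 (limma adjusted p = 0.0685, 0.079 and 0.116). Over all rows there were then 370 calls, in place of 1402. Leaving out any 1 of the CUMS-Sal libraries also ended all 3 calls, at log2 changes of 0.82 to 0.99 for Junb, 0.57 to 0.64 for Arc and 0.40 to 0.54 for Nr4a1. The estimates of Arc and Nr4a1 do not use the drug groups, but their calls share 1 estimate of spread with them: Arc was also not called without any 1 CUMS-Alb library or without CUMS-Flx replicate 2 (limma adjusted p = 0.0544 to 0.0569). Nr4a1 was also not called without CUMS-Alb replicates 2 or 3, CUMS-Flx replicates 2 or 3, or Ctrl-Sal replicates 1 or 3 (limma adjusted p = 0.0586 to 0.0643). Over all alternatives the adjusted p ran from 0.00905 to 0.128 for Junb, 0.018 to 0.131 for Arc and 0.0387 to 0.14 for Nr4a1.

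**Figure D3:**
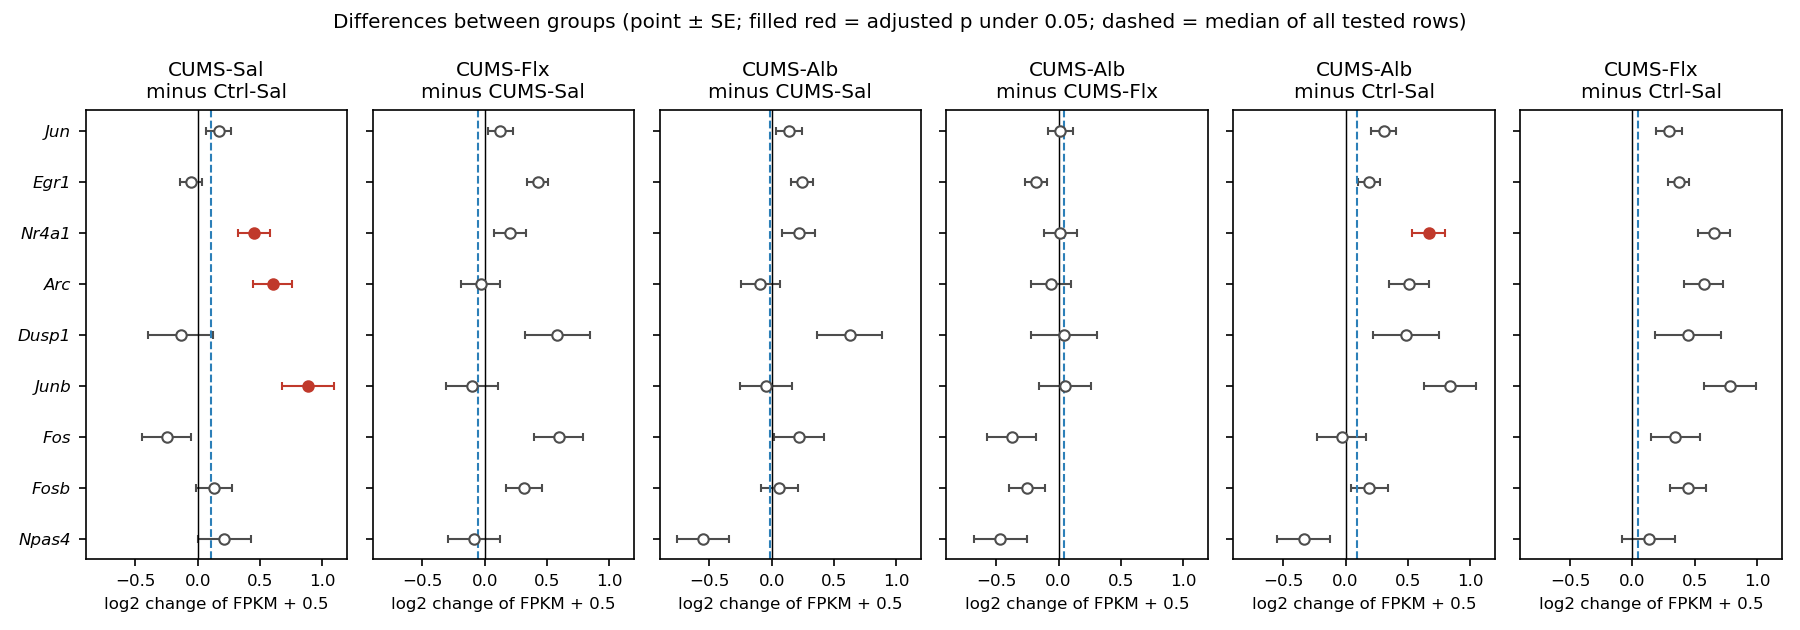
Log2 change of FPKM + 0.5 (x axis) with its SE for the 9 tested genes (y axis) in 6 comparisons, first-named group minus second. Red points passed an adjusted p under 0.05, which 3 genes did in CUMS-Sal minus Ctrl-Sal and Nr4a1 did in CUMS-Alb minus Ctrl-Sal; the dashed line is the median of all tested rows.

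Fluoxetine was examined by comparing CUMS-Flx with CUMS-Sal. No member passed the test, and the members with the largest differences were not those that were higher in CUMS-Sal than in Ctrl-Sal. Egr1 averaged 25.4 ± 1.56 FPKM in CUMS-Flx, against 18.8 ± 0.369 in CUMS-Sal (SD, n = 3 each), 1.34-fold on the scale of FPKM + 0.5 (log2 change 0.42, SE 0.09, limma unadjusted p = 0.000304, adjusted p = 0.298). Fos averaged 3.46 ± 0.312 FPKM in CUMS-Flx, against 2.15 ± 0.494 in CUMS-Sal (log2 change 0.59, SE 0.20, limma adjusted p = 0.4). Dusp1 averaged 15.03 ± 3.97 and Fosb 2.49 ± 0.0629 FPKM in CUMS-Flx, against 9.73 ± 1.58 and 1.91 ± 0.133 in CUMS-Sal (log2 changes 0.58 and 0.32, SEs 0.26 and 0.15, limma adjusted p = 0.49 and 0.502). These 4 genes did not overlap between the groups, so that 4 of 9 members were higher without overlap, against 4.25% of all tested rows, and 0 were lower, against 13.6%.

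Limma called 0 of 15253 rows here (0%), limma-voom on recovered reads also called none, and 9.98% of rows had an unadjusted p under 0.05, against 3 of 9 members. The median log2 change was 0.20 for the members and -0.05 for all tested rows. Egr1 stayed uncalled at a threshold of 0.05 under every alternative, with an adjusted p of 0.0992 to 0.619 and log2 changes of 0.38 to 0.48. Arc and Junb, with log2 changes of -0.03 and -0.10 (SEs 0.16 and 0.21), and Nr4a1, at 0.20 (SE 0.13), differed from CUMS-Sal by less than 2 SEs. Egr2 had 88 reads in CUMS-Flx and 49 in CUMS-Sal, a ratio of 1.60 with an exact 95% interval of 1.12 to 2.32 from counting alone.

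CUMS-Flx and CUMS-Alb are each set against CUMS-Sal, so that both comparisons share those libraries, and the values are given side by side. In CUMS-Alb minus CUMS-Sal the log2 change was 0.63 for Dusp1 (SE 0.26), 0.24 for Egr1 (SE 0.09) and -0.55 for Npas4 (SE 0.21), each with an unadjusted p under 0.05 and a limma adjusted p of 0.9996. Dusp1 averaged 15.5 ± 4.13 FPKM in CUMS-Alb, against 9.73 ± 1.58 in CUMS-Sal, and Egr1 22.4 ± 2.13 in CUMS-Alb, against 18.8 ± 0.369 in CUMS-Sal (SD, n = 3 each). Npas4 averaged 0.525 ± 0.0842 FPKM in CUMS-Alb, against 1.02 ± 0.280 in CUMS-Sal. Its reads summed to 64 in CUMS-Alb and 116 in CUMS-Sal, a ratio of 0.515 with an exact 95% interval of 0.373 to 0.705 from counting alone.

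Limma called 0% of rows in CUMS-Alb against CUMS-Sal, limma-voom called none, and 3.66% had an unadjusted p under 0.05, against 3 of 9 members. Egr1 and Dusp1 were higher without overlap, 2 of 9 members against 4.75% of rows, and Npas4 was lower without overlap, 1 of 9 against 6.5%. Fos, with a log2 change of 0.22 (SE 0.20), Fosb, 0.06 (SE 0.15), Arc, -0.09 (SE 0.16), and Junb, -0.05 (SE 0.21), differed from CUMS-Sal by less than 2 SEs.

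In the direct comparison of the drugs, CUMS-Alb against CUMS-Flx, no member was called, where limma called 0.00656% of rows, limma-voom called 1 row that was no member, and 4.98% of rows had an unadjusted p under 0.05. Npas4 was the 1 member of 9 with such a p: it averaged 0.525 ± 0.0842 FPKM in CUMS-Alb, against 0.938 ± 0.316 in CUMS-Flx (SD, n = 3 each; log2 change -0.47, SE 0.21, limma adjusted p = 0.955). Npas4 and Fosb were lower in CUMS-Alb without overlap, both by a narrow margin, 2 of 9 members against 3.13% of rows, and 0 were higher, against 10.6%. Fos averaged 2.64 ± 0.893 FPKM in CUMS-Alb, against 3.46 ± 0.312 in CUMS-Flx (log2 change -0.37, SE 0.20). The log2 changes of Arc, Junb, Jun, Nr4a1 and Dusp1 were within -0.06 to 0.05, with SEs of 0.10 to 0.26. Egr2, outside the main test, had 80 reads in CUMS-Alb and 88 in CUMS-Flx, a ratio of 0.951. The exact 95% interval of that ratio was 0.693 to 1.30 from counting alone.

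Set against unstressed rats, CUMS-Alb had Nr4a1 called higher, at 20.6 ± 4.33 FPKM against 12.6 ± 0.587 in Ctrl-Sal (SD, n = 3 each; 1.59-fold, log2 change 0.67, SE 0.13, limma adjusted p = 0.0403). This was 1 of 9 members, where 2.5% of rows were called, 2.18% higher and 0.321% lower. The unadjusted p was under 0.05 for 5 of 9, against 27.4% of rows. Junb was next, at 12.7 ± 1.36 FPKM in CUMS-Alb, against 7.14 ± 2.49 in Ctrl-Sal (log2 change 0.84, SE 0.21, limma adjusted p = 0.0508), then Arc, with a log2 change of 0.51 (SE 0.16, adjusted p = 0.0706), and Jun, 0.31 (SE 0.10, adjusted p = 0.0838). Without Ctrl-Sal replicate 2 the log2 changes were 0.57 for Junb, 0.30 for Arc and 0.17 for Jun (limma adjusted p = 0.111, 0.18 and 0.224). Those of Dusp1 and Egr1 were larger without that library, at 0.78 in place of 0.49 and 0.27 in place of 0.19. With all libraries, Nr4a1, Junb, Arc and Jun were higher without overlap, 4 of 9 members against 24.6% of rows. Npas4 was lower without overlap, against 6.37%. Without CUMS-Alb replicate 1, the highest library for Nr4a1, its log2 change was 0.50 (limma adjusted p = 0.143), and without Ctrl-Sal replicate 2 it was 0.64 (adjusted p = 0.0741); it was also not called without CUMS-Alb replicates 2 or 3, any 1 CUMS-Sal library, or CUMS-Flx replicates 2 or 3. Over the alternatives its adjusted p ran from 0.0203 to 0.144.

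In CUMS-Flx against Ctrl-Sal, 7 of 9 members were higher in every CUMS-Flx library than in every Ctrl-Sal library, against 11.9% of rows, and 0 were lower without overlap, against 5.75%. None of the 9 was called, against 0.0524% of rows, 0.0328% higher and 0.0197% lower. The 7 were Nr4a1, Egr1, Junb, Arc, Fosb, Jun and Fos. Nr4a1 averaged 20.2 ± 2.23 FPKM in CUMS-Flx, against 12.6 ± 0.587 in Ctrl-Sal (SD, n = 3 each). Its log2 change was 0.65 (SE 0.13, limma adjusted p = 0.0885). Limma-voom on recovered reads, in which Egr2 was also tested, called Nr4a1 and no other member (adjusted p = 0.0481), against 0.344% of rows. Egr1 averaged 25.4 ± 1.56 FPKM in CUMS-Flx, against 19.6 ± 1.98 in Ctrl-Sal (log2 change 0.37, SE 0.09, limma adjusted p = 0.1). The unadjusted p was under 0.05 for 6 of 9 members, against 17.5% of rows. All 9 log2 changes were above 0, with a median of 0.45 against 0.05 for all tested rows. The comparisons of CUMS-Sal, CUMS-Alb and CUMS-Flx with Ctrl-Sal share the Ctrl-Sal libraries, and the log2 changes of Junb in them were 0.88, 0.84 and 0.78, those of Arc 0.60, 0.51 and 0.57 and those of Nr4a1 0.45, 0.67 and 0.65. Without Ctrl-Sal replicate 2 they were 0.62, 0.57 and 0.52 for Junb, 0.39, 0.30 and 0.36 for Arc and 0.43, 0.64 and 0.63 for Nr4a1. In CUMS-Flx against Ctrl-Sal the log2 change of Jun was 0.29, and 0.15 without that library, and that of Fosb 0.45, and 0.30 without it. Those of Dusp1 and Egr1 were larger without it, at 0.74 in place of 0.45 and 0.45 in place of 0.37.

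A single test per gene of any difference among the 4 groups called none of the 9 members, with limma calling 0.0459% of rows. The smallest adjusted p was 0.0645, for Nr4a1, followed by Egr1 (0.0766), Junb (0.0891) and Arc (0.108). An unadjusted p under 0.05 was reached by Nr4a1, Egr1, Junb, Arc and Jun, 5 of 9, against 23.2% of rows. Limma-voom called 2 members, but its share over all rows in this test is not given here, so that count cannot be set against it.

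Replicates of 1 group differed more for most of these genes than for a typical row. The SD of log2(FPKM + 0.5) between replicates, pooled over the 4 groups, was above the all-row median of 0.14 for 7 of the 9 tested members, with a median of 0.23. Dusp1 spread most, at 0.39, more than 96% of rows, and ranged 1.70-fold among the CUMS-Alb libraries and 2.16-fold among the 3 of Ctrl-Sal, or 1.30-fold without Ctrl-Sal replicate 2. Junb, at 0.31, exceeded 91.4% of rows and ranged 2.08-fold in Ctrl-Sal, or 1.33-fold without replicate 2. Npas4 and Fos, at 0.28 and 0.27, exceeded 88.2% and 87.8%. Egr1, at 0.11, was steadier than most rows and ranged 1.04-fold among the CUMS-Sal libraries, and Jun, at 0.14, lay at the middle. Without Ctrl-Sal replicate 2 the pooled SD was 0.32 for Dusp1, 0.28 for Fos and Npas4, 0.22 for Junb, 0.14 for Arc, in place of 0.23, and 0.07 for Jun, and the all-row median was 0.12.

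Counting reads accounts for a different share of this spread in each gene. The SD that counting alone gives is 0.07 for Dusp1, so that its replicates differed by 5.42 times counting error. The factor was 4.34 for Jun, 4.33 for Arc and 3.81 for Junb, against a median of 1.67 over all tested rows. That median is over rows of all levels, and counting SD falls as reads rise. Without Ctrl-Sal replicate 2 the pooled SD was lower, at 0.07 for Jun, 0.14 for Arc, 0.22 for Junb and 0.32 for Dusp1. The counting SDs with all libraries were 0.03 for Jun, 0.05 for Arc and 0.08 for Junb. The factor of pooled SD over counting SD, with all libraries, was 1.08 for Egr2, 1.61 for Fosb, 1.77 for Npas4 and 1.84 for Fos. The median SD of the tested members was 0.15 in CUMS-Alb, 0.16 in CUMS-Flx, 0.15 in CUMS-Sal and 0.26 in Ctrl-Sal. Over all tested rows it was 0.09 in CUMS-Alb, 0.11 in both CUMS-Flx and CUMS-Sal, and 0.15 in Ctrl-Sal. With all its libraries, Ctrl-Sal was the group of largest spread for the members. Without Ctrl-Sal replicate 2, the median Ctrl-Sal SD was 0.10 for the members and 0.09 for all tested rows. An SD from fewer libraries tends to be lower, and the library left out was the one that stood apart. These values therefore cannot be ranked against those of the other groups.

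**Figure D4:**
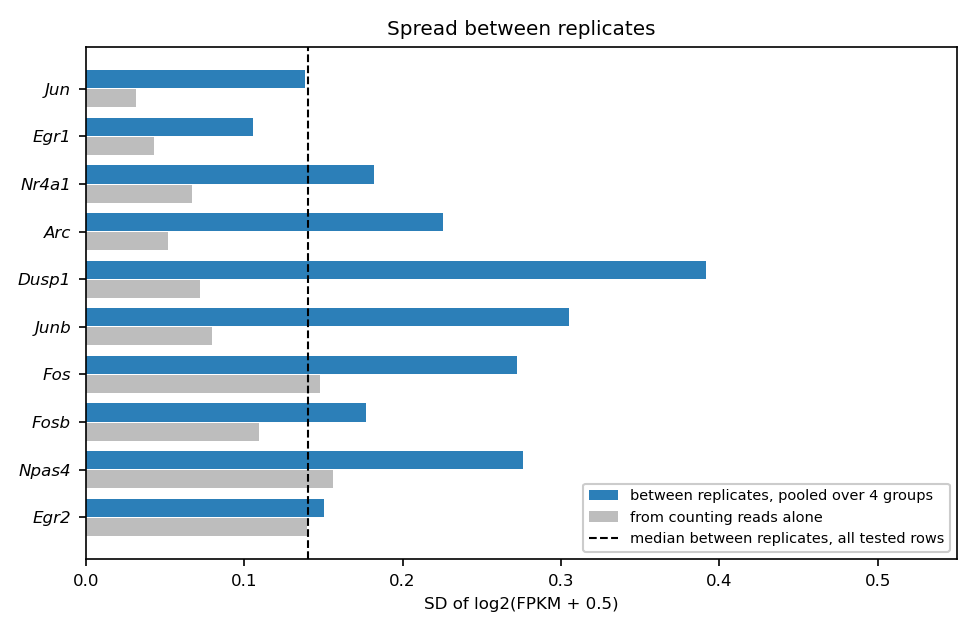
SD of log2(FPKM + 0.5) between replicates pooled over the 4 groups (blue bars, x axis) and the SD from counting reads alone (grey bars) for the 10 genes (y axis), with the median of all tested rows as a dashed line. Dusp1 reaches 0.39 with 0.07 from counting, while the bars of Egr2 are of near-equal length.

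Pairs of members were compared over the libraries. Of the 45 pairs, 37 (82.2%) had a positive Pearson correlation over the 12 libraries, against 56.5% of all pairs of tested rows. Without Ctrl-Sal replicate 2 the count was 38, against 56.9% of row pairs, and for deviations from group means it was 29, against 52.8%. In 2 pairs both Pearson's r and Spearman's rho passed permutation tests of 100000 resamples at a Benjamini-Hochberg adjusted p under 0.05 over the 45 pairs. Arc and Junb had r = 0.959 and rho = 0.951 (two-sided permutation p = 1e-05 each, the smallest that these resamples give, adjusted p = 0.00045). Their r was 0.923 without the 2 libraries farthest from the median of Arc, 0.890 without Ctrl-Sal replicate 2, and 0.901 for deviations from group means, which is a description. Egr1 and Dusp1 had r = 0.837 (two-sided permutation p = 0.00099, adjusted p = 0.0223) and rho = 0.867 (p = 0.00058, adjusted p = 0.0131), with r = 0.826 without the 2 libraries farthest from the median of Egr1 and 0.912 within groups. Across these pairs, Arc and Dusp1 had r = -0.028 (permutation p = 0.936), and 0.390 without Ctrl-Sal replicate 2, and Egr1 and Junb had r = 0.192 (permutation p = 0.572), and 0.378 without it. Arc and Egr1 had r = 0.175 and 0.398 without it, and Junb and Dusp1 r = 0.083 and 0.513 without it. The same library moved other pairs further: r was 0.182 for Jun and Dusp1, and 0.830 without it, 0.334 for Egr1 and Jun, and 0.719 without it, and -0.010 for Egr2 and Jun, and 0.723 without it.

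In Ctrl-Sal replicate 2, Arc, Junb, Nr4a1, Jun and Fosb were at their lowest of all 12 libraries, whereas Egr2 was at its highest and Egr1 and Dusp1 were at the highest of the Ctrl-Sal group. CUMS-Alb replicate 1 was the highest of its group for 9 of 10 members, all but Fosb, and CUMS-Flx replicate 1 the lowest of its group for 8. Some relations rested on few libraries. Junb and Jun had r = 0.844 (permutation p = 0.00416, adjusted p = 0.03435), which became 0.310 without the 2 libraries farthest from the median of Junb, and Fosb and Jun had r = 0.772 (permutation p = 0.00458, adjusted p = 0.03435), which became 0.468. Fos and Fosb had rho = 0.846 (permutation p = 0.00091, adjusted p = 0.0137) and r = 0.665 (p = 0.0179, adjusted p = 0.0896). Libraries share their scaling within each column, and groups differ in level, so these correlations mix differences between groups with those between replicates; with library deviations set to 0, 3 pairs passed both tests.

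**Figure D5:**
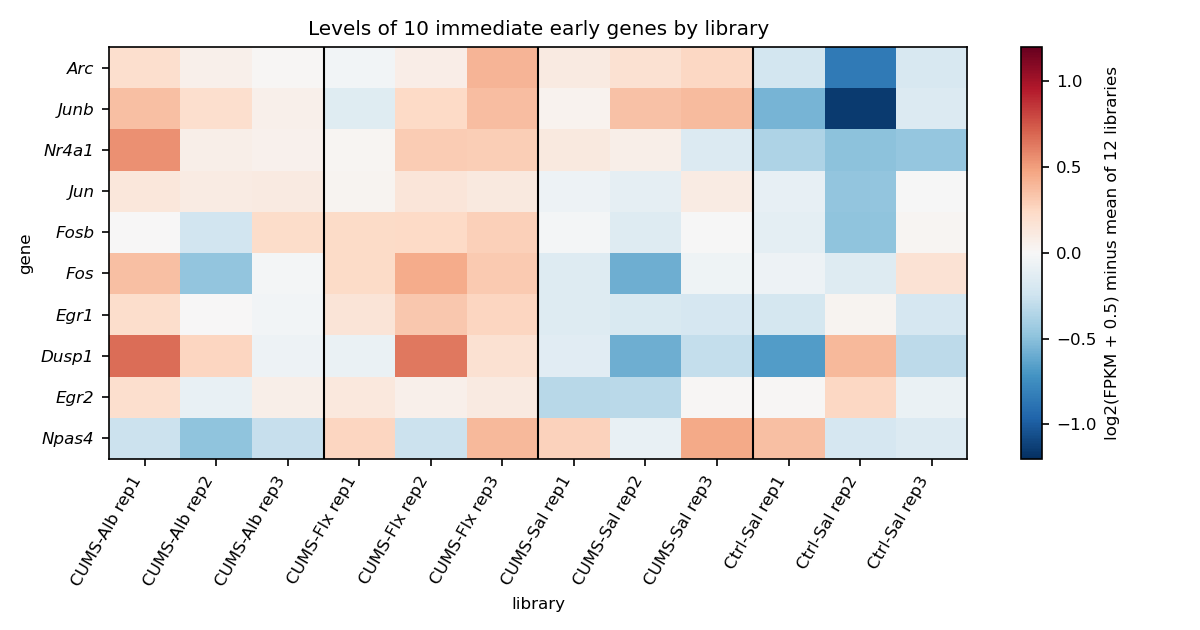
Log2(FPKM + 0.5) minus the mean of the 12 libraries (colour) for the 10 genes (rows) in each library (columns, groups separated by lines). Arc and Junb are lowest in Ctrl-Sal replicate 2, where Egr1, Dusp1 and Egr2 are above or near their means.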

How the data were processed

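Hippocampal RNA of 12 libraries was extracted with TRIzol and 3 µg entered a standard Illumina preparation, per the labels. TopHat2 and build rn6 are named in the submitters' processing notes; the counter, annotation and strand setting are not named in the sources used here, so reads from overlapping or antisense genes cannot be set apart. The authors deposited FPKM; the header names no unit, and it was read from the values. Reads and gene lengths were recovered for 22737 of 22737 rows above 0, whole to within 0.0001 of a read, and checked on simulated data.

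Values were tested as log2(FPKM + 0.5), which understates changes of low genes, on the 15253 rows whose mean reached 0.5 FPKM. Limma 3.58.1 in R 4.3.3, with trend and robust settings, fitted all 12 libraries with 1 coefficient per group, and adjusted p-values are Benjamini-Hochberg over all tested rows. Permutations and motif searches used Python 3.11.15 with numpy 2.4.6 and scipy 1.17.1. Intervals and counting SDs cover counting error only; depth was 14735953 to 18109623 reads. Replicate pairs differed beyond counting noise (chi-square per degree of freedom 3.47 to 22.7), so none was counted as a copy.

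The members and lists were chosen with earlier results of these data known. All 10 members are named; the other gene lists and cell type markers, and the rule for genes of like pattern, matched no row, since names are not paired with the table's IDs in the sources used here. Alternatives were quantile normalization, library median deviations set to 0, limma with neither trend nor robust settings, no filter, a minimum of 5 FPKM, pseudocounts of 0.1 and 1, a block for replicate number, only the compared groups in the fit, an adjusted p under 0.1, limma-voom on recovered reads averaging 10 or more, and leaving out each library. Leaving out libraries for the spread, pair signs over all rows, and scaling and Ctrl-Sal replicate 2 for the correlations, were added after seeing the data.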

Additional observations from a re-analysis of the deposited data

How the results depend on the processing

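The 21 log2 changes with an unadjusted p under 0.05 kept their direction in all 479 values from alternatives. Many of these values were fixed in advance. The filters, trend and robust settings, replicate block, threshold, fit of only the compared groups and removal of other groups' libraries do not alter a log2 change. Direction could change only under other scaling, pseudocounts, limma-voom or with a compared library left out. Of the 479, 413 kept their side of the threshold, 51 lost a call and 15 gained one. The number of members called in CUMS-Sal against Ctrl-Sal was 3 by the main test, where 9.19% of rows were called. It was 1 under limma with neither trend nor robust settings (4.85% of rows) and quantile normalization (3.47%). It was also 1 with library median deviations set to 0 (4.87%) and the replicate block (3.7%). It was 0 with no filter (1.1%) and with only the groups compared (0%). With 1 library left out it was 0 to 3, against 0.00656% to 17.3% of rows. In CUMS-Alb against Ctrl-Sal, 1 by the main test (2.5% of rows), it was 0 under those same 6 settings (0% to 0.642%). It was 2 with limma-voom (7.78%) and with a minimum mean of 5 FPKM (10.7%), which Fos, Fosb, Npas4 and Egr2 do not reach. At an adjusted p under 0.1 it was 4 (15.6%), and with 1 library left out 0 to 4 (0% to 15.4%). In CUMS-Flx against Ctrl-Sal, 0 by the main test (0.0524% of rows), it was 1 at an adjusted p under 0.1 (0.846%) and with limma-voom (0.344%). With 1 library left out it was 0 to 3 (0.00654% to 3.56%). In the test of any difference it was 0 by the main test (0.0459% of rows) and 1 with a minimum mean of 5 FPKM. It was 3 at an adjusted p under 0.1, 2 with limma-voom and 0 to 2 with 1 library left out. The shares of all rows called under these alternatives are not given for that test, so its counts cannot be set against them. Calls were gained without Ctrl-Sal replicate 3 (Arc, Jun and Junb in CUMS-Alb, and Arc, Junb and Nr4a1 in CUMS-Flx, each against Ctrl-Sal, and Egr1 and Junb in the test of any difference), without CUMS-Flx replicate 1 (Junb in CUMS-Alb) and without CUMS-Alb replicate 1 (Nr4a1 in CUMS-Flx). The count stayed at 0 in the 3 comparisons among stressed groups under all alternatives run, where 0% to 0.0328% of rows were called. The cause of these differences was not tested. Of the 9 tested members, 6 to 8 spread more than the median row with 1 library left out, and 7 or 8 under other pseudocounts and scaling. No shared effect of replicate number was seen: deviations of same-numbered libraries correlated at -0.16 to 0.13, over 0.1 in 1 of 18 pairs, and 0 of 12 libraries correlated best with their own number. These values do not show whether libraries were handled together by number. Depth limits Egr2 most, with 13 to 32 reads per library and a spread of 1.08 times counting error.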
